A study of Mus musculus with 99 samples.

Results

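The hearts of 129X1/SvJ, LP/J and BTBR T<+> tf/J mice, 3 inbred strains grouped here as Castle-derived, were compared with those of the other 25 classical inbred strains of the series. The 3 strains were picked out by their strain label, and each contributed 1 array of the 28 from classical strains and of the 99 in all. The other 71 arrays came from recombinant inbred panels, CAST/EiJ and B6cC3-1/KccJ and entered no test. The series profiled heart transcripts across inbred strains for association mapping of expression, on Affymetrix HT_MG-430A arrays, which read mostly the 3′ ends of transcripts. All 28 classical strains were male, untreated and on chow under a light and dark cycle. The protocol gives an age of 16 weeks for every mouse, whereas the age label reads 23 weeks for LP/J, 41 for BTBR T<+> tf/J and 42 for 129X1/SvJ, and over the series it goes up by 1 from sample to sample in 97 of 98 cases. The age label was therefore not used. The strains carry their own natural alleles, with no transgene or induced lesion named in the labels, and a strain stands on 1 array. Every error and p-value therefore reflects how strains differ from each other, plus any technical variation.

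129X1/SvJ belongs to the strain family that is the classical source of mouse embryonic stem cells, LP mice carry the piebald allele of the endothelin receptor B gene, and BTBR mice carry the tufted coat mutation and lack a corpus callosum. Strains that share ancestors share long stretches of the genome, so a variant that changes the transcript of a nearby gene can appear in all of them, and genes along the same stretch can differ side by side. An array level can also fall where a strain's own sequence differs under the probes. Such a fall and a lower transcript level cannot be told apart in the deposited values, which give no probe readings.

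All 3 arrays carried heart transcripts at the top of the scale. The ventricular myosin light chain gene Myl2 read 13.53 log2 units in LP/J, 13.61 in BTBR T<+> tf/J and 13.62 in 129X1/SvJ, against 13.49 to 13.61 in the others, and troponin T gene Tnnt2 read 12.90, 12.86 and 12.89, against 12.70 to 12.97. Across the 28 arrays the values ran from 2.45 to 13.69 log2 units, with array medians from 3.97 to 4.06, and levels near 3 lie close to the floor of the array. A difference of 1 log2 unit is a doubling. The number of arrays limits the precision.

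Of the 3 arrays, LP/J and 129X1/SvJ stood apart. LP/J held the highest or lowest level of all 28 strains at 1124 of 7506 genes tested (15%), more than any other array, where the 25 other strains ranged from 287 to 791 with a median of 513. 129X1/SvJ did so at 480 genes (6.39%) and BTBR T<+> tf/J at 257 (3.42%), the fewest of the 28. The gap between the 3′ and 5′ control probe sets of Actb, a gauge of how much of a message was copied, was 2.51 log2 units in LP/J, above the range of the others (1.55 to 2.38), and 1.91 and 1.96 in BTBR T<+> tf/J and 129X1/SvJ. The 129X1/SvJ array carried transcripts of squamous epithelium and fast skeletal muscle. These markers are described below, and each called gene is given with and without each of the 3 arrays.

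In the 3 strains together, 6 genes were called by limma (Benjamini-Hochberg adjusted p under 0.05), which is 0.0799% of those tested. Of these, 5 were lower (0.0666%) and 1 was higher (0.0133%). At an unadjusted p under 0.05 there were 324 lower genes (4.32%) and 226 higher genes (3.01%), 550 in all (7.33%), where the test gives 375.3 by chance. All 3 arrays lay outside the range of the other 25 at 6 genes (0.0799%). Sdc2, Cd59a, Cpq and Arhgap9 lay below it (0.0533%), and Socs2 and Myocd above it (0.0266%). With 3276 possible sets of 3 strains and 7506 genes, any given set can lie beyond all other strains at some genes by chance. Whether 6 genes exceed the number due by chance was not tested.

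**Figure D1:**
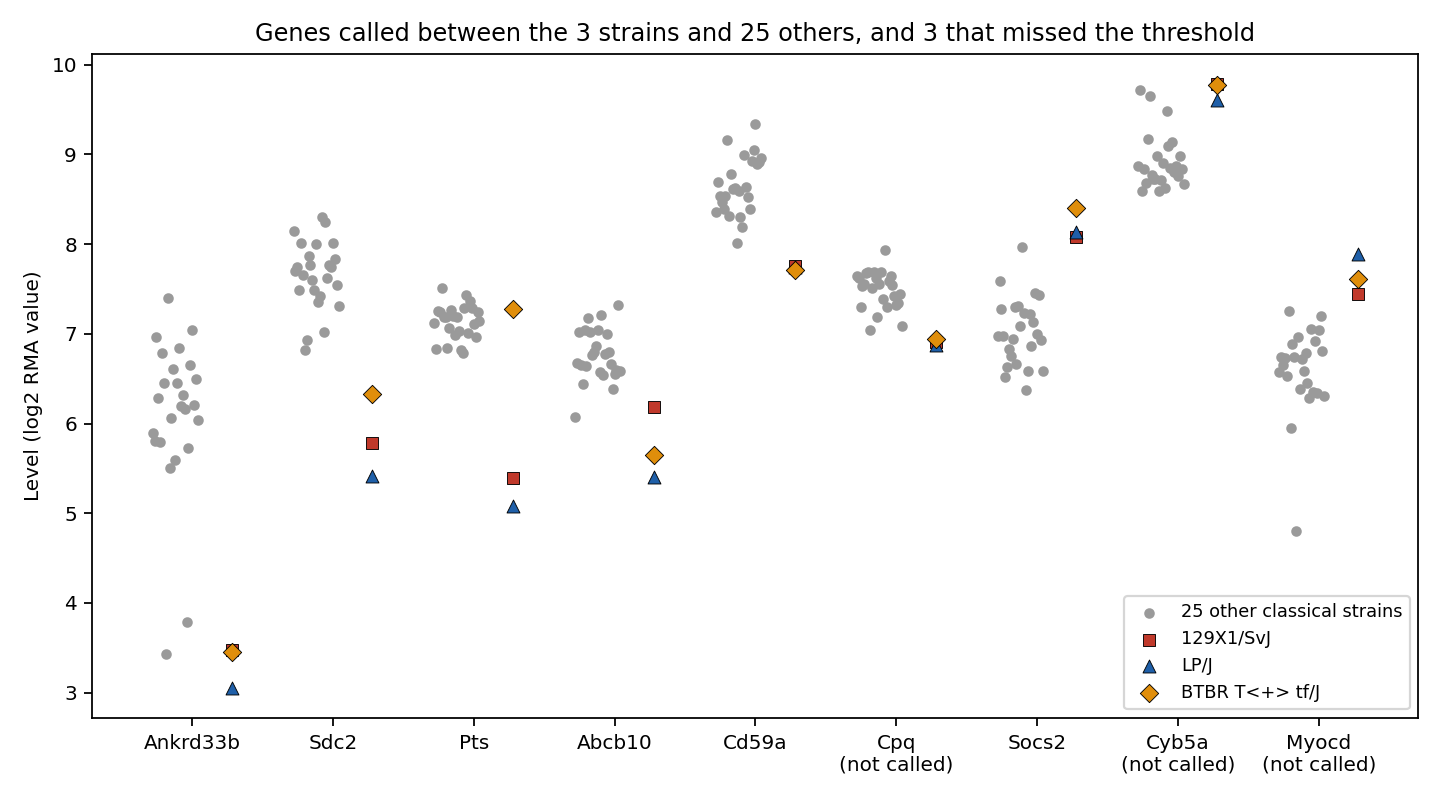
Level of 9 genes (vertical axis, log2 RMA value) in 129X1/SvJ (squares), LP/J (triangles), BTBR T<+> tf/J (diamonds) and each of the 25 other classical strains (grey points, spread sideways for legibility). The 3 strains lie below every other strain at Sdc2, Cd59a and Cpq and above every other at Socs2 and Myocd, whereas BTBR T<+> tf/J lies among the others at Pts.

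Sdc2 encodes syndecan-2, a transmembrane heparan sulfate proteoglycan of the cell surface. It read 5.41 log2 units in LP/J, 6.33 in BTBR T<+> tf/J and 5.79 in 129X1/SvJ, against 6.81 to 8.31 with a median of 7.71 in the other strains. All 3 lay below every other classical strain, of which NOD/ShiLtJ (6.81), KK/HlJ (6.93) and BUB/BnJ (7.02) came nearest. The mean was lower by 3.51-fold (log2 difference -1.81, SE 0.23, limma adjusted p 6.16e-05, n = 3 and 25). Sdc2 was called without LP/J (-1.60, adjusted p 0.0157), without BTBR T<+> tf/J (-2.06, 4.66e-05) and without 129X1/SvJ (-1.78, 0.00437). Its other probe sets were lower by 1.76 and 0.44 log2 units, and the second of these differences was not called when every probe set was tested on its own (adjusted p 0.462).

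Ankrd33b encodes an ankyrin repeat protein. Its levels were 3.05 in LP/J, 3.45 in BTBR T<+> tf/J and 3.47 in 129X1/SvJ, all close to the floor, against 3.43 to 7.40 with a median of 6.20 in the others. The groups overlapped at 1 strain, KK/HlJ (3.43), with C57L/J at 3.78 and every further strain at 5.51 or above. The mean was lower by 6.84-fold (-2.78, SE 0.49, limma adjusted p 0.00915), the largest difference among the called genes. It stayed between -2.64 and -2.85 when any of the 3 strains was left out, but was not called without LP/J (adjusted p 0.353) or 129X1/SvJ (0.0892).

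Cpq encodes carboxypeptidase Q, a secreted and lysosomal peptidase. The 3 arrays read 6.88, 6.95 and 6.90 in the order LP/J, BTBR T<+> tf/J and 129X1/SvJ, below all others (7.05 to 7.94, median 7.55). The difference of -0.58 (SE 0.12) missed the threshold (limma adjusted p 0.0577), and its dim other probe set differed by -0.14. Cpq was called under 5 alternatives, with adjusted p from 0.0145 (mean of its probe sets, -0.36) to 0.0495 (every probe set tested on its own).

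In the gene order of RefSeq, Ankrd33b, Marchf6, Cmbl, Cct5, Sdc2 and Cpq follow each other among the tested genes. The 3 genes between Ankrd33b and Sdc2 were not called: the ubiquitin ligase gene Marchf6 differed by 0.13 log2 units, the hydrolase gene Cmbl by -0.20 and the chaperonin gene Cct5 by 0.06. Beyond Cpq, Mtdh differed by 0.09. Over all tested genes, 26 had an unadjusted p under 0.001, and 3 of these (11.5%) had another such gene within 5 tested genes on either side, as did 3.23% of all 7501 placed genes. These 3 are Ankrd33b, Sdc2 and Cpq. At an unadjusted p under 0.05 the shares were 54.2% and 52.3%, and under 0.01 they were 12.6% and 18.4%.

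**Figure D2:**
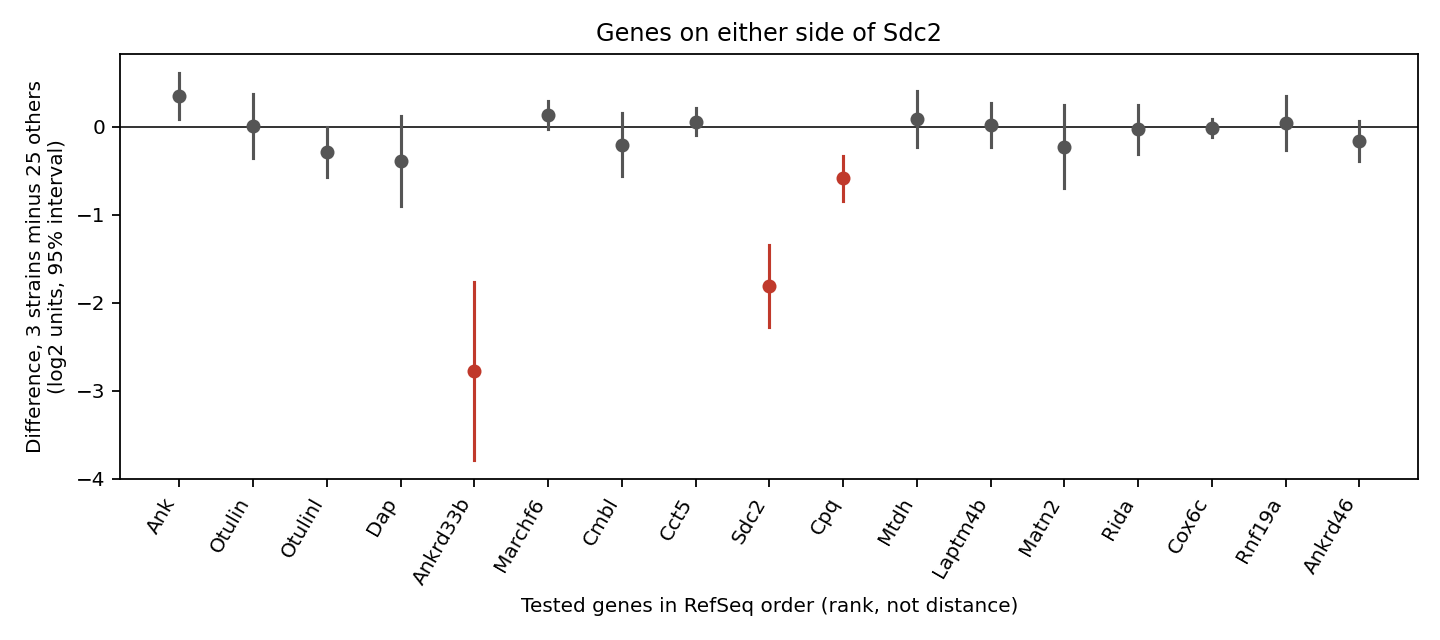
Difference between the 3 strains and the 25 others (vertical axis, log2 units, point and 95% interval of the limma fit) for Sdc2 and the tested genes on either side, in RefSeq order and evenly spaced by rank. Ankrd33b, Sdc2 and Cpq, in red, have unadjusted p under 0.001, and the intervals of Marchf6, Cmbl and Cct5 between them cross 0.

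None of the 71 arrays outside the classical strains reached the levels of the 3 strains at Sdc2 (6.49 to 8.20) or Ankrd33b (4.47 to 7.36). CAST/EiJ held the lowest Ankrd33b of these 71. At Cpq, 2 of the 71 lay within or below the 3 strains, CAST/EiJ (6.35) and 1 BXA strain (6.66).

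Pts encodes 6-pyruvoyltetrahydropterin synthase, an enzyme of tetrahydrobiopterin synthesis. LP/J read 5.08 and 129X1/SvJ 5.40, while BTBR T<+> tf/J read 7.27, against 6.79 to 7.51 with a median of 7.18 in the others. LP/J and 129X1/SvJ were thus below every other strain and BTBR T<+> tf/J was above the median of the others. The mean difference of -1.22 (2.32-fold lower, SE 0.22, limma adjusted p 0.00915) therefore averages unlike strains. It was -1.89 without BTBR T<+> tf/J (adjusted p 8.93e-10), -0.80 without LP/J (0.678) and -0.95 without 129X1/SvJ (0.386). Of the other 71 arrays, CAST/EiJ (4.95) also had a low level, and the next lowest, a BXD strain, read 6.69.

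Abcb10 encodes a transporter of the inner mitochondrial membrane that takes part in haem synthesis. It read 5.40 in LP/J, 5.65 in BTBR T<+> tf/J and 6.19 in 129X1/SvJ, against 6.08 to 7.33 with a median of 6.76. Only I/LnJ (6.08) reached into the range of the 3, and C57BL/6J came next (6.38). The mean was lower by 2.03-fold (-1.02, SE 0.18, limma adjusted p 0.00915), and its dimmer probe sets differed by -0.98 and, near the floor, by -0.09. It was called without 129X1/SvJ (-1.24, adjusted p 0.00541) but not without LP/J (-0.85, 0.422) or without BTBR T<+> tf/J (-0.97, 0.054). Of the other 71 arrays, 3 lay within or below the 3 strains, CAST/EiJ (4.31), 1 BXH strain (6.13) and 1 AXB strain (6.13).

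Cd59a encodes an inhibitor, anchored to the cell surface, of the membrane attack complex of complement. Its brightest probe set read 7.74 in LP/J, 7.71 in BTBR T<+> tf/J and 7.76 in 129X1/SvJ, below all others (8.02 to 9.34, median 8.62). The mean was lower by 1.88-fold (-0.91, SE 0.18, limma adjusted p 0.0324), and the difference was nearly the same with 1 strain left out, though not called: -0.91 without LP/J (adjusted p 0.422), -0.90 without BTBR T<+> tf/J (0.094) and -0.92 without 129X1/SvJ (0.222). Of the other 71 arrays, 2 BXD strains reached these levels. The other probe set of the gene, nearly as bright, gave a larger difference (-1.59) that came from BTBR T<+> tf/J (6.31) and 129X1/SvJ (6.60), while LP/J read 8.34. The probe sets thus disagreed on LP/J. Of 13 tested complement genes Cd59a was the only call, where 0.0799% of all tested genes were called. Differences were below 0 at 11 of the 13 (median -0.16), as at 52.9% of all tested genes (median -0.01).

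Promoter windows from RefSeq were at hand for 4 of the 5 lower genes. Windows of 300 bases around the start are shown for the gene with the largest difference and for the gene whose window is poorest in CG pairs. Capitals mark GGGCGG, the core of an Sp1 site, on either strand. The windows lie on the GRCm38.p6 build, on the minus strand at chr15:31367710-31368009 for Ankrd33b and on the plus strand at chr2:104095551-104095850 for Cd59a.
Ankrd33b: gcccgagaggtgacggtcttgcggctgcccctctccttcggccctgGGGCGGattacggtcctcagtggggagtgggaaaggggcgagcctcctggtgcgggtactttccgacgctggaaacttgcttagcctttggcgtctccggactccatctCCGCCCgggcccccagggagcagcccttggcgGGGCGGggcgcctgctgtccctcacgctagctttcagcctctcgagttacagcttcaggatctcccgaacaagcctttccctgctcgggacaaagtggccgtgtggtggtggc
Cd59a: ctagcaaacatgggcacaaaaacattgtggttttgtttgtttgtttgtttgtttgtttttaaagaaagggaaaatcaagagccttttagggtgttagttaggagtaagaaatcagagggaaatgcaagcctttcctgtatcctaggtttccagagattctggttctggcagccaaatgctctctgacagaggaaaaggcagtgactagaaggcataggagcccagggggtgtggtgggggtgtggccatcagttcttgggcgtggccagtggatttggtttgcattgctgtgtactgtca
The Ankrd33b window holds 22 CG pairs and 3 copies of GGGCGG, the Cd59a window 1 CG pair and 0 copies. The windows of Abcb10 and Pts hold 21 and 25 CG pairs, with 0 copies and 1 copy of GGGCGG. Of 9362 such windows, 57.0% hold GGGCGG, and the median number of CG pairs is 18. TATAAA, on either strand, is in 0 of the 4 windows and in 10.5% of all. These are the sequences of the reference strain, not of the 3 strains.

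The 1 higher gene was Socs2, which encodes a suppressor of cytokine signalling that dampens the growth hormone receptor. It read 8.13 in LP/J, 8.41 in BTBR T<+> tf/J and 8.08 in 129X1/SvJ, against 6.38 to 7.97 with a median of 6.97. All 3 lay above every other classical strain, CBA/J (7.97) being the nearest. The mean was higher by 2.27-fold (1.18, SE 0.21, limma adjusted p 0.00915), and a dimmer probe set differed by 0.96. The difference was 1.08 to 1.25 with any of the 3 strains left out and was then not called (adjusted p 0.0828 to 0.26). Of the other 71 arrays only CAST/EiJ (8.28) reached these levels.

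Myocd and Cyb5a were not called but lay at the high edge. Myocd encodes myocardin, a cofactor of serum response factor in heart and smooth muscle. It read 7.89, 7.61 and 7.44 in LP/J, BTBR T<+> tf/J and 129X1/SvJ, above all others (4.80 to 7.26, median 6.72), with a difference of 1.04 (SE 0.28, limma adjusted p 0.249) and of 0.80 in its other probe set. In BXD, 9 of 30 strains reached the levels of the 3. Cyb5a encodes cytochrome b5, an electron carrier. Its levels were 9.61, 9.78 and 9.78, against 8.59 to 9.71 with a median of 8.84, and CE/J (9.71) and NOD/ShiLtJ (9.65) overlapped with them. The difference was 0.80 (SE 0.18, limma adjusted p 0.0705), and it was called with the Gapdh (adjusted p 0.0435) or Actb (0.0423) control gap as a covariate. It was also called without the 5 arrays that carried transcripts of another organ (0.0381), which include CE/J and NOD/ShiLtJ, the overlapping strains.

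Further genes with small unadjusted p missed the adjusted threshold. On the lower side these included both Meox homeobox genes. Meox1 read 3.84, 4.41 and 3.79 in LP/J, BTBR T<+> tf/J and 129X1/SvJ, against 4.33 to 5.82 (difference -1.03, limma adjusted p 0.174), and Meox2 read 4.17, 4.65 and 3.64, against 4.45 to 5.33 (-0.69, adjusted p 0.0705). Jmjd7 (-0.70), the histamine methyltransferase gene Hnmt (-0.67), the vesicle transport gene Trappc4 (-0.66) and the gamma-synuclein gene Sncg (-0.77) had adjusted p from 0.106 to 0.226. Arhgap9 read 3.52, 3.82 and 3.73, below the 3.85 to 5.70 of the others (-0.81, adjusted p 0.456). On the higher side stood Blvrb, a biliverdin reductase gene (0.98, adjusted p 0.206), Hif3a, a hypoxia-inducible factor subunit gene (0.98, 0.226), Src (0.52, 0.245) and Mrps36 (0.43, 0.245). Crybg1 (0.66, 0.285), Midn (0.38, 0.293), Mboat2 (0.89, 0.335), Ubxn10 (0.96, 0.345) and Pla2g2c (0.38, 0.345) followed. Blvrb was called with related strains averaged (1.03, limma adjusted p 0.00857). At Sncg, Crybg1, Ubxn10 and Pla2g2c, BTBR T<+> tf/J read 4.20, 3.41, 3.68 and 3.63, near the medians of the others (4.16, 3.55, 3.45 and 3.57). Those means therefore average unlike strains. Without BTBR T<+> tf/J, Sncg, Crybg1, Ubxn10, Meox2 and Hnmt were called (limma adjusted p 0.00176 to 0.0415). Polr1d, an RNA polymerase subunit gene, differed by 0.003 in its brightest probe set but by 0.75 in its other (8.60, 8.24 and 8.62 in LP/J, BTBR T<+> tf/J and 129X1/SvJ), which was called when every probe set was tested on its own (limma adjusted p 0.00583).

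The 3 strains did not behave as a unit at every gene. A strain was counted as odd where it lay over 1 log2 unit from both others while these lay within 0.5 of each other. This held for LP/J at 52 genes (0.693%), for BTBR T<+> tf/J at 43 (0.573%) and for 129X1/SvJ at 58 (0.773%), of which 17 belonged to the lists of other organs. At 11 of the 43 genes where BTBR T<+> tf/J was odd, it was LP/J and 129X1/SvJ that lay over 1 log2 unit from the median of the other strains. Pts is among these. Gdpd3, a lysophospholipase D gene, read 9.84 in LP/J and 9.75 in 129X1/SvJ but 3.82 in BTBR T<+> tf/J, where the others ran from 3.47 to 10.40 with a median of 3.94. Pam, an enzyme that amidates peptide hormones, read 10.27, 10.24 and 8.27, where the others ran from 7.43 to 11.10 with a median of 8.36. Trappc4 read 5.68 in LP/J and 6.02 in 129X1/SvJ, both below every other strain (6.50 to 7.40), and 7.14 in BTBR T<+> tf/J. Without BTBR T<+> tf/J, Trappc4 was called (-1.09, limma adjusted p 4.41e-05), and the calls numbered 13.

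Each strain also had genes at which it alone left the range of the other 27. These are single arrays with no replicate and no test. 129X1/SvJ lay over 1 log2 unit above all other 27 at 8 genes (0.107%), among them the epithelial genes Serpinb3a and Krt5 and fast myosin gene Myh1, and below them at 1 gene (0.0133%). LP/J did so at 1 gene above, Fkbp5, and at 1 gene below, Cpxm2 (0.0133% each). BTBR T<+> tf/J did so at 0 genes above (0.0%) and at 1 gene below, Slu7 (0.0133%). In 129X1/SvJ, Efcab2 read 4.75 where the other 25 ran from 7.01 to 8.83 and LP/J and BTBR T<+> tf/J read 8.07 and 8.60, and its other probe set was low too (3.45). In LP/J, Cpxm2, a carboxypeptidase-like gene, read 3.28 against 4.39 to 8.59, and Pno1 read 5.14 against 6.04 to 7.14. Cpxm2 was not low in LP/J alone. With 129X1/SvJ left out, LP/J and BTBR T<+> tf/J together differed there by -3.56 (limma adjusted p 0.0306). In BTBR T<+> tf/J, Mecr, an enzyme of mitochondrial fatty acid synthesis, read 4.01 against 4.31 to 6.50 and was low in both probe sets. Slu7, a splicing factor gene, read 4.45 there against 5.57 to 6.99, but in the other 5 probe sets BTBR T<+> tf/J lay within the range of the other 25. Lbh (7.20 against 4.60 to 6.62) and the growth factor gene Igf2 (7.92 against 5.49 to 7.41) were highest in BTBR T<+> tf/J.

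Loci for which these strains are known were read in heart RNA too. Ednrb, the piebald gene, read 3.83 in LP/J, just below the lowest of the other 25 (3.86), with 4.66 in BTBR T<+> tf/J and 4.09 in 129X1/SvJ. Itpr3, the calcium channel gene mutated in tufted mice, was dim in BTBR T<+> tf/J (3.43) and in the other 25 (3.23 to 4.23). Among 15 tested genes known to vary in these or other inbred strains, 0 were called (at an unadjusted p under 0.05, 0 as well). Over all tested genes the shares were 0.0799% and 7.33%, so a count of 0 in so short a list says little. H2-Ea is a class II chain gene silent in mice of the H2b haplotype. A probe set that was not its brightest read 3.15, 3.47 and 3.13 in LP/J, BTBR T<+> tf/J and 129X1/SvJ. The others ran from 3.10 to 9.35 there, with a median of 4.15. In its brightest probe set the 3 strains read 5.11, 4.49 and 4.80, against 4.26 to 6.16 with a median of 4.74.

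Genes of the heart's working programme lay close to the other strains. Of 24 sarcomere genes 0 were called (median difference 0.04), likewise of 43 genes of oxidative phosphorylation (-0.003) and of 28 genes of fatty acid oxidation (0.06). At an unadjusted p under 0.05 these lists held 0, 1 and 0 genes. Of 15 calcium handling genes 0 were called and 2 were higher at an unadjusted p under 0.05 (median 0.03). In LP/J 3 of these 15 lay above the range of the others and 0 below, where 7.67% of all tested genes lay above it in LP/J. Over all tested genes 0.0799% were called, 7.33% had an unadjusted p under 0.05 and 3.01% were higher at that p.

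Collagens and fibroblast matrix genes leaned lower. Of 25 tested, 0 were called, 22 had differences below 0, and 8 were lower at an unadjusted p under 0.05, with a median of -0.37. Over all tested genes 52.9% were below 0 and 4.32% were lower at that p, with a median of -0.01. Col3a1, a fibrillar collagen gene, read 8.47 in LP/J, 9.33 in BTBR T<+> tf/J and 8.80 in 129X1/SvJ, against 8.40 to 10.43 (-0.65, limma adjusted p 0.676). Loxl1, which crosslinks elastic fibres, read 7.12, 7.99 and 7.34, against 7.51 to 8.53 (-0.48, adjusted p 0.484), and Mfap5, a microfibril gene, read 6.68, 7.97 and 6.58, against 7.12 to 8.48 (-0.59, adjusted p 0.593). LP/J and 129X1/SvJ lay below the others at Loxl1 and Mfap5 and BTBR T<+> tf/J among them. By strain the median of the list was -0.33 in LP/J (20 of 25 genes below the mean of the others), -0.54 in 129X1/SvJ (25 of 25) and -0.16 in BTBR T<+> tf/J (15 of 25). Without 129X1/SvJ the median was -0.25 and 0 genes had an unadjusted p under 0.05, and without LP/J it was -0.39 with 2. With the Actb control gap, highest in LP/J, as a covariate it was -0.35 with 3. In whole heart RNA, fewer cells of a type and less RNA per cell cannot be told apart.

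**Figure D3:**
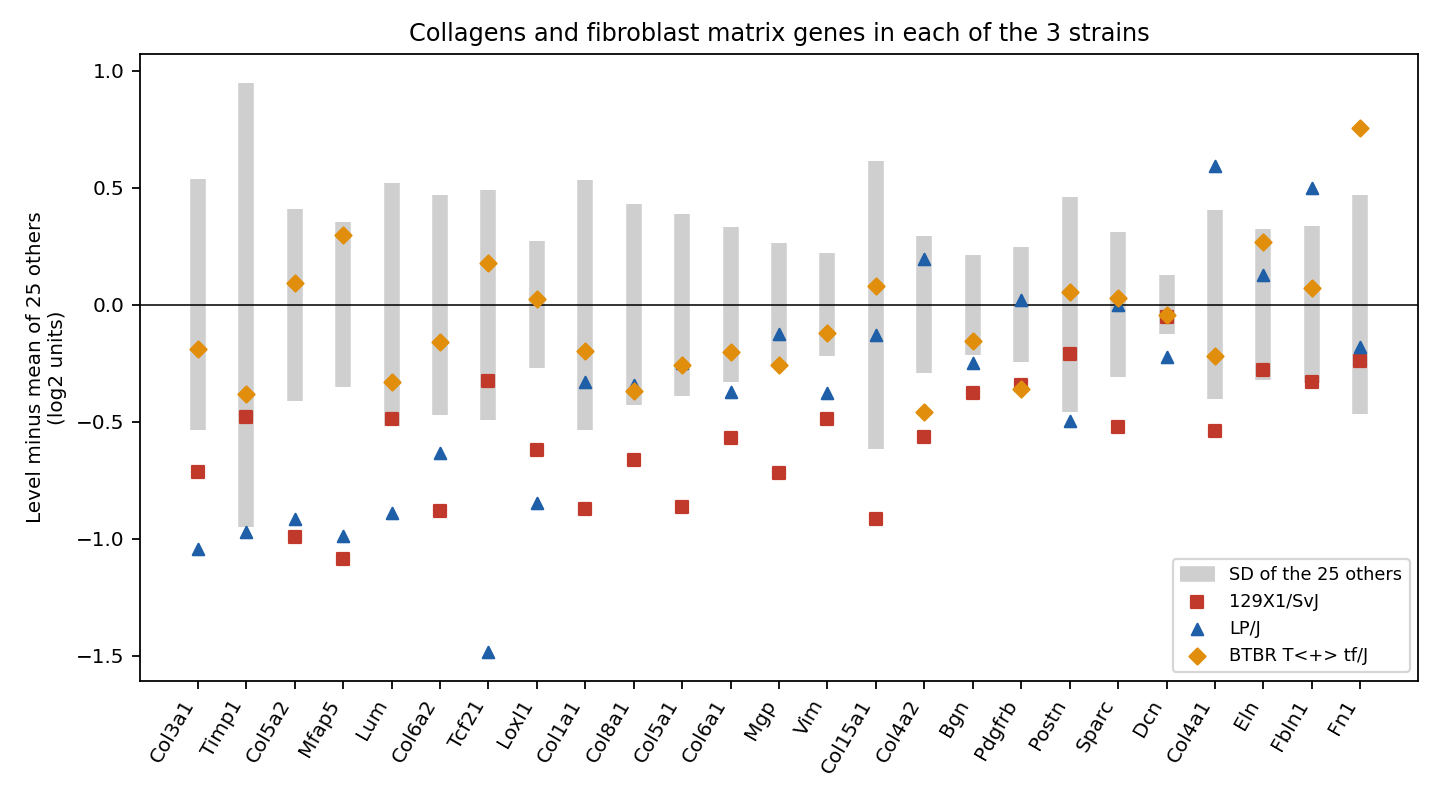
Level of each of 25 collagen and fibroblast matrix genes in 129X1/SvJ (squares), LP/J (triangles) and BTBR T<+> tf/J (diamonds), as the log2 difference from the mean of the 25 other strains, with the SD of those strains as a grey bar around 0. Genes are ordered by the mean difference of the 3 strains. All 25 squares lie below 0, while the diamonds fall on either side.

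Endothelial markers differed between the 3. Of 19 tested, 0 were called and 4 were lower at an unadjusted p under 0.05 (4.32% of all genes were), with 14 differences below 0 and 5 above (median -0.13). The median turned positive without 129X1/SvJ (0.04, with 2 genes lower at that p). It did so too without the 5 arrays that carried transcripts of another organ (0.06, with 1). Without LP/J it was -0.31 with 5, and without BTBR T<+> tf/J -0.12 with 4. Cldn5, a tight junction gene, read 7.01 in LP/J, 6.29 in BTBR T<+> tf/J and 6.48 in 129X1/SvJ, against 6.21 to 8.15, and had the lowest difference of the list (-0.60, limma adjusted p 0.648). The VEGF receptor gene Flt1 had the highest (0.35) and read 7.95, 7.02 and 7.07, against 6.47 to 7.72, so LP/J lay above the others there. The median over the list was -0.43 in 129X1/SvJ, with 7 of 19 genes below the range of the others and 0 above. In LP/J it was 0.16, with 4 above and 2 below, and in BTBR T<+> tf/J -0.18 with 0 outside. Over all tested genes, 129X1/SvJ lay below the other 25 at 4.28%, and LP/J lay above them at 7.67% and below them at 8.01%.

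The 129X1/SvJ array carried transcripts typical of other tissues. The mean over 23 squamous epithelium genes was 6.88 log2 units there, 3.78 in LP/J and 3.90 in BTBR T<+> tf/J, against 3.71 to 6.47 with a median of 3.76 in the others, where only CE/J (6.47) and NOD/ShiLtJ (5.99) came near. The keratin genes Krt4 and Krt13 read 11.80 and 10.64 in 129X1/SvJ and at most 3.67 and 3.12 in LP/J and BTBR T<+> tf/J. The others reached 11.34 and 10.13 there, with medians of 3.08 and 3.16. In 129X1/SvJ, 15 of the 23 genes lay over 1 log2 unit above the median of the others. The mean over 15 fast skeletal muscle genes was 7.70 in 129X1/SvJ, against 4.79 to 7.31 in the others, with 8 of 15 over 1 log2 unit above their median. CE/J (7.31) and NOD/ShiLtJ (6.99) were high for this list too. Troponin C gene Tnnc2 read 10.16 and fast myosin gene Myh1 9.41 in 129X1/SvJ, where the others reached 9.23 and 7.98. The low matrix and endothelial levels of 129X1/SvJ were measured on this array, and the part of these transcripts in them was not tested.

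BTBR T<+> tf/J carried airway transcripts, as did several of the other strains. Its mean over 15 airway genes was 5.40, against 3.56 to 7.84 with a median of 4.10 in the others and 3.82 and 3.95 in LP/J and 129X1/SvJ, and 6 of the 15 lay over 1 log2 unit above the median of the others. The secretoglobin gene Scgb1a1 read 9.28 and Bpifa1 read 9.30.

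LP/J had the highest level of glucocorticoid-responsive and metallothionein genes of the 28. Glucocorticoids rise with stress and with the time of day and induce these genes in most tissues. The mean over 13 genes was 9.26 in LP/J, 8.38 in BTBR T<+> tf/J and 8.34 in 129X1/SvJ, against 7.63 to 8.99 in the others. In LP/J, 8 of the 13 lay above the range of the others, in the other 2 strains 0. Over all tested genes the shares above the other 25 were 7.67% in LP/J, 1.96% in BTBR T<+> tf/J and 3.06% in 129X1/SvJ. The Actb control gap of LP/J (2.51) was also above the others, and its part in these levels was not tested. With that gap as a covariate, the median difference of the 3 strains from the others was 0.16, against 0.21 without it. No gene was then higher at an unadjusted p under 0.05. That fit compares the 3 strains together and does not address LP/J alone. Fkbp5, which restrains the glucocorticoid receptor, read 8.78 in LP/J, 7.02 in BTBR T<+> tf/J and 7.30 in 129X1/SvJ, against 5.04 to 7.76. The transcription factor gene Zbtb16 read 8.32, 6.16 and 6.58, against 4.41 to 7.72, and Ddit4, an inhibitor of mTOR signalling, read 10.43, 8.47 and 8.62, against 6.55 to 10.06. LP/J was thus alone above the others at each of these genes. In the comparison of the 3 strains 0 of the 13 were called and 1 was higher at an unadjusted p under 0.05, and without LP/J the median was 0.02.

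**Figure D4:**
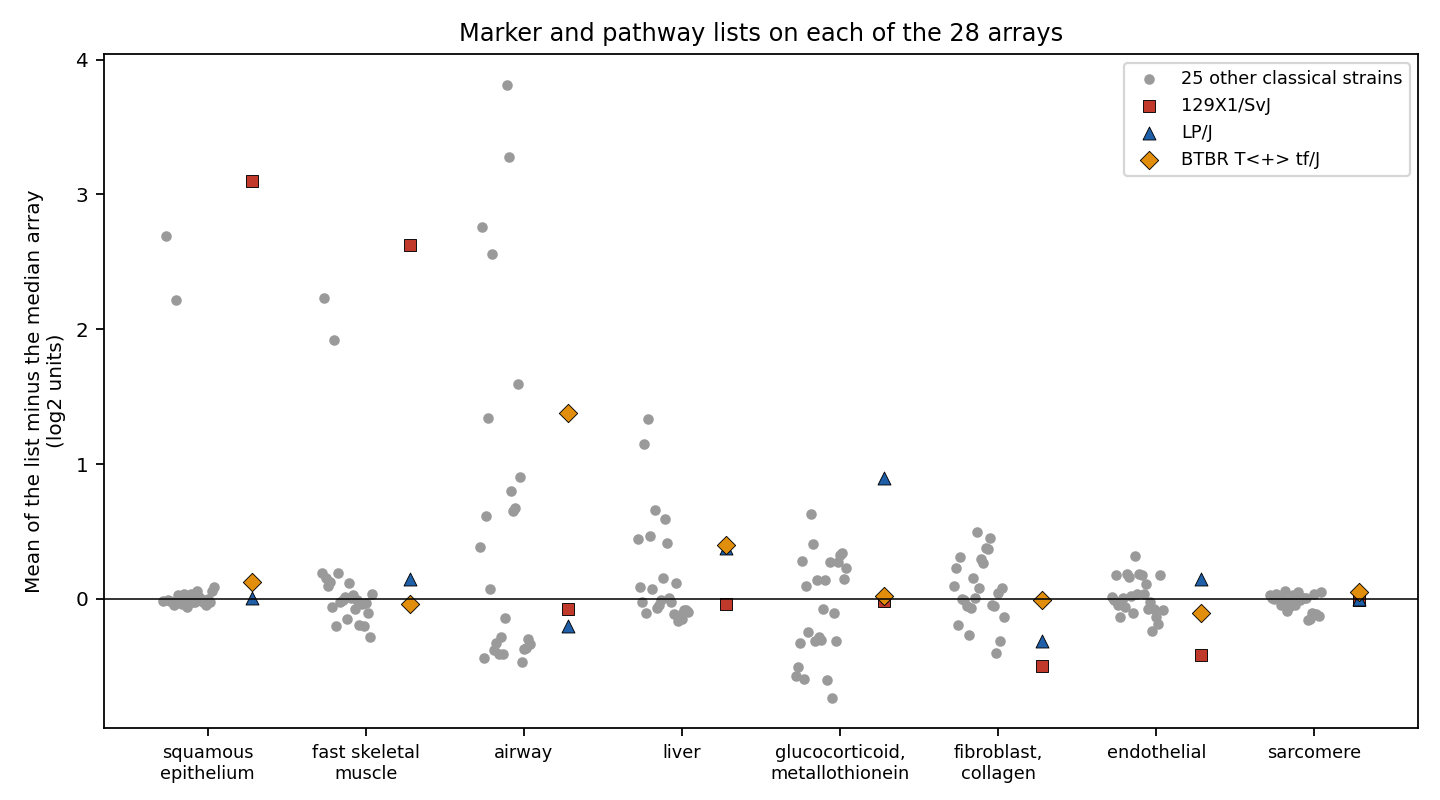
Mean level of 8 gene lists on each array, as the difference from the median array (vertical axis, log2 units), for 129X1/SvJ (squares), LP/J (triangles), BTBR T<+> tf/J (diamonds) and the 25 other strains (grey points). 129X1/SvJ is the highest for squamous epithelium and fast skeletal muscle and the lowest for collagens and endothelial genes, LP/J is the highest for glucocorticoid-responsive genes, and the sarcomere list is nearly level on all 28 arrays.

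Over all tested genes, the 3 arrays were not shown to be nearer each other than any 3 classical strains. The distance between arrays was the median absolute difference over 7506 genes. Its mean over the 3 pairs was 0.223 log2 units, where the median of all 3276 sets of 3 strains was 0.218 (exact one-sided permutation p 0.604). LP/J and BTBR T<+> tf/J lay 0.254 apart, LP/J and 129X1/SvJ 0.242, and BTBR T<+> tf/J and 129X1/SvJ 0.172, which was the nearest of all 27 arrays to 129X1/SvJ and ranked 7 among 378 pairs. From BTBR T<+> tf/J, NOD/ShiLtJ (0.160), A/J (0.163) and I/LnJ (0.166) were nearer than 129X1/SvJ. With LP/J left out, BTBR T<+> tf/J and 129X1/SvJ were nearer than most pairs of strains (median 0.216, exact one-sided permutation p 0.0199). The titles of BTBR T<+> tf/J and 129X1/SvJ, numbers of unstated meaning, are 286 and 289, while that of LP/J is 45, and the part of this in their distance was not tested. LP/J had the largest mean distance to the other 27 of all strains (0.259) and BTBR T<+> tf/J the smallest (0.197).

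**Figure D5:**
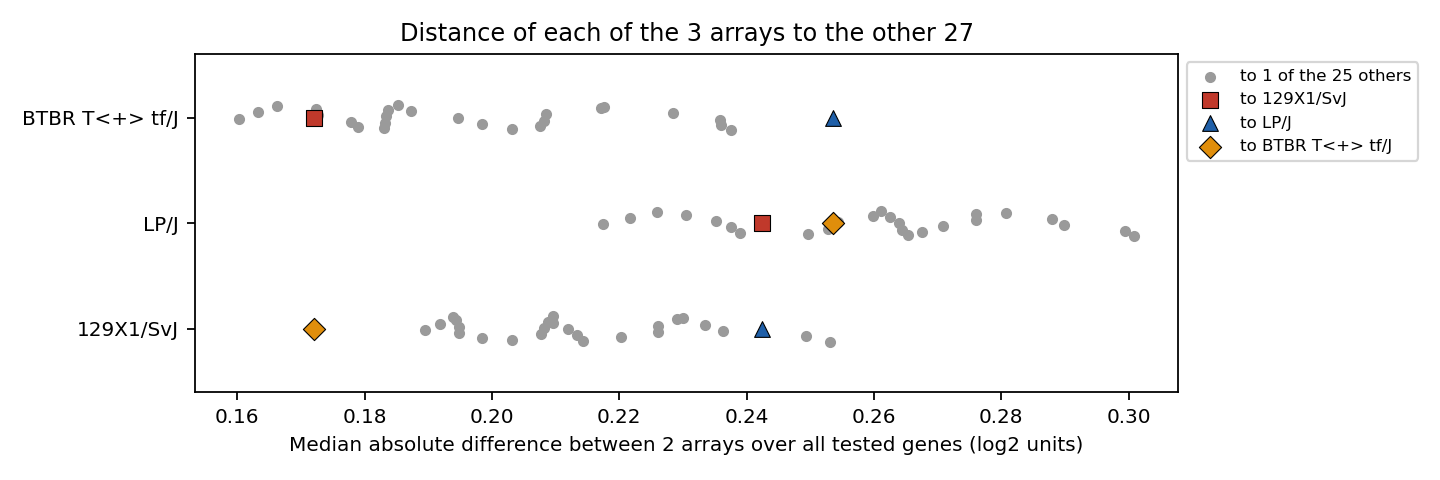
Distance of each of the 3 arrays to the other 27 classical strains (horizontal axis, median absolute difference over 7506 genes in log2 units). Grey points are the 25 other strains and coloured symbols the other 2 of the 3. The nearest array to 129X1/SvJ is BTBR T<+> tf/J (0.172), and LP/J lies farther from BTBR T<+> tf/J than any of the 25 others do.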

How the data were processed

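Heart total RNA of 28 classical inbred strains, 1 array each, was used. Per the labels, RNA was copied from oligo-dT primers into biotin-labelled cRNA. The values the authors deposited are log2 levels of 22416 probe sets (89 for controls), and GCOS and RMA are named without versions, per the submitters' processing notes. RMA shares probe information and a common distribution between arrays. Builds used upstream are not given in the sources used here.

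Of the probe sets, 17783 had 1 gene symbol in the platform annotation, 284 several and 4349 none here. Each of 11725 genes was read from its brightest probe set, and the 7506 whose mean exceeded 3.59 log2 units, the 40th percentile over probe sets, were tested. The fit used lmFit and eBayes of limma 3.58.1 (R 4.3.3), with no covariate and only the 28 arrays. Calls needed an adjusted p (Benjamini-Hochberg) under 0.05. Gene lists are described by counts and medians. Distances were tested by exact permutation over strains. Python 3.11.15 with pandas 2.3.3, numpy 2.4.6, scipy 1.17.1 and matplotlib 3.10.9 made the tables and figures.

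Named genes were the 12 called genes of largest difference in each direction, filled up by the smallest unadjusted p, then genes whose 3 arrays all left the range of the others, called list members, members of the lists of strain loci and known variants, and genes at which 1 strain left the range of the other 27. Other named genes, such as Gdpd3, Pam, Polr1d, H2-Ea and single uncalled list members, were picked with their values in view. The strains and lists were chosen with earlier results of these data known.

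Simulated data for this comparison (7506 genes) held 67, 67 and 66 genes shifted by 0.5, 1 and 2 log2 units. There limma recovered 49.3%, 92.5% and 98.5% of them, with 5 false calls in all. With more true changes the Benjamini-Hochberg threshold is easier to pass, and the real arrays gave far fewer calls. These shares may therefore overstate recovery on the real arrays. Alternatives were other filters on dim genes, all probe sets, renormalisation, moderated variance with a trend, related strains averaged, covariates for RNA controls and title numbers, and arrays left out. The 3′ to 5′ gap of Actb as a covariate was added after the data were seen.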

Additional observations from a re-analysis of the deposited data

How the results depend on the processing

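The 6 called genes became 5 to 8 under the other filters, the mean of all probe sets, renormalisation, a moderated variance with a trend, related strains averaged and the control or title covariates, 4 without the 5 arrays that carried transcripts of another organ (129X1/SvJ among them), and 12 probe sets when every probe set was tested on its own. Leaving out 1 of the 3 strains gave 1 to 13 calls: 1 without LP/J (Sdc2), 3 without 129X1/SvJ (Sdc2, Abcb10 and Cpxm2) and 13 without BTBR T<+> tf/J. Sdc2 was called in all 15 alternatives, Abcb10 in 13, Ankrd33b and Socs2 in 12, Pts in 11 and Cd59a in 9. Lost calls kept differences close to the reported ones for Cd59a with median centring (-0.90, adjusted p 0.0609) and the Actb covariate (-0.87, 0.109), Pts with related strains averaged (-1.21, 0.0638), and Ankrd33b (-2.79, 0.207) and Cd59a (-0.94, 0.207) without the 5 arrays, where Pts moved to -0.99 (0.494). Of the comparisons of named genes under alternatives, 583 kept their side of the threshold, 18 lost a call, 15 gained a call and 0 changed direction. The mean distance among the 3 arrays ran from 0.172 to 0.254 with 1 strain left out. It fell below the median set only without LP/J (0.172 against 0.216, exact one-sided permutation p 0.0199). The result for distance thus depended on LP/J. No paired analysis was possible because the labels give the strains no shared replicate numbers. With 3 strains in a group, shifts of 0.5 log2 units are often missed, and differences near 1, as at Myocd, can be missed too. Levels near the floor of the array, as at Ankrd33b, understate differences.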
